A study of Mus musculus with 16 samples.

Results

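H3K27 acetylation at the nuclear genes of oxidative phosphorylation was examined in mouse liver. The set was chosen by symbol: genes beginning with Ndufa, Ndufb, Ndufc, Ndufs, Ndufv, Uqcr, Cox4 to Cox8 or Atp5, and Sdha to Sdhd. The complex of each gene was likewise set by its symbol prefix, which can differ from the place of its product. This gave 96 protein-coding genes, of which 82 had at least 1 of the deposited regions of acetylation, by midpoint inside the gene or, outside all genes, within 50 kb of it as the nearest gene. These 82 genes held 172 of the 52645 regions and all of them passed the filter on low counts. The study compared livers of wild-type (WT) mice and NCoR1 knockout (KO) mice, both on a C57BL/6J background. Mice were 6 weeks old when they stayed on chow or went onto PTU/LID, a low-iodine diet containing 0.15% propylthiouracil, which blocks thyroid hormone synthesis. The diets lasted 3 weeks and livers were taken on day 21, which gave 3 H3K27ac libraries in each of 4 groups. WT on chow had Chow_WT_27ac_96, Chow_WT_27ac_99 and Chow_WT_27ac_106, and WT on PTU/LID had Ptulid_WT_27ac_135, Ptulid_WT_27ac_155 and Ptulid_WT_27ac_280. KO on chow had Chow_NCoRKO_27ac_122, Chow_NCoRKO_27ac_146 and Chow_NCoRKO_27ac_190, and KO on PTU/LID had Ptulid_NCoRKO_27ac_211, Ptulid_NCoRKO_27ac_232 and Ptulid_NCoRKO_27ac_239. Libraries are called by their titles. Sex, the deleted exons and the promoter of any Cre were not stated in the labels. Nor did they state that each library is a separate animal, so p-values speak of the variation among libraries, which may be technical.

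Oxidative phosphorylation takes place in the inner mitochondrial membrane. Complexes I and II feed electrons from NADH and succinate to coenzyme Q, complex III passes them to cytochrome c, complex IV passes them to oxygen, and complex V makes ATP from the proton gradient that complexes I, III and IV build. Most subunits are encoded in the nucleus, and thyroid hormone is a classical regulator of mitochondrial respiration in liver. NCoR1 is a corepressor that brings histone deacetylase 3 to nuclear receptors, including unliganded thyroid hormone receptors. H3K27ac marks active promoters and enhancers.

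Total counts ranged from 2965505 to 7416187 per library. Mitochondrial regions (chrM) took 2.27% to 17.25% of counts in 7 libraries, the high set, and 0.72% to 1.08% in the other 5, the low set. The low set held Chow_WT_27ac_106, Ptulid_WT_27ac_155, Ptulid_WT_27ac_280, Ptulid_NCoRKO_27ac_232 and Ptulid_NCoRKO_27ac_239, and no KO chow library. Of WT chow it thus held only Chow_WT_27ac_106. The high set held only Ptulid_WT_27ac_135 of WT PTU/LID and Ptulid_NCoRKO_27ac_211 of KO PTU/LID. Fits within a set that rest on such a lone library borrow their spread from other groups and are given by effect size. All 10 hepatocyte markers had a region. Their summed level was 3334.9 to 4295.3 CPM (counts relative to library size, with TMM scaling) in WT chow, 3227.9 to 4708.7 in WT PTU/LID and 3759.1 to 4103.0 in KO chow, and 4776.8 to 5029.1 in KO PTU/LID, above every other library. Of 8 Kupffer cell and macrophage markers, 5 (Clec4f, Cd5l, Vsig4, Adgre1 and Marco) had no region, and the other 3 summed to 47.23 to 62.19 CPM in WT chow, 25.01 to 33 in WT PTU/LID, 29.59 to 36.45 in KO chow and 25.61 to 43.18 in KO PTU/LID. Among lymphocyte markers 2 of 7 had a region, with 96.78 to 100.4 CPM in WT chow, 48.93 to 66.33 in WT PTU/LID, 103.2 to 139.5 in KO chow and 72.50 to 73.95 in KO PTU/LID. The 2 of 5 cholangiocyte markers with a region had 35.54 to 48.14 CPM in WT chow and 48.72 to 68.94 in WT PTU/LID, and 43.06 to 58.55 over the KO libraries. Stellate cell markers with a region, 3 of 7, summed to 19.81 to 27.05 CPM in WT chow and 17.66 to 24.83 in WT PTU/LID. In KO they summed to 15.27 to 21.31 on chow and 11.44 to 20.31 on PTU/LID. Single markers that passed included Spi1, of the Kupffer cell and macrophage list, which fell with diet in WT by 0.93 ± 0.19 on the log2 scale (edgeR adjusted p = 0.00316). Spi1 was also lower in KO than in WT on chow (-0.72 ± 0.18, 0.0255). Cd4, of the lymphocyte list, fell with diet by 1.03 in WT (0.000722) and in KO (0.000156). Ptprc, the other lymphocyte marker with a region, did not pass with diet (-0.33 ± 0.19 in WT, 0.312, and 0.32 ± 0.19 in KO, 0.383). On chow, Cd4 was higher in KO than in WT (0.56 ± 0.16, edgeR adjusted p = 0.0486) and Ptprc lower (-0.69 ± 0.19, 0.0415). Sox9, of the cholangiocyte list, rose with diet by 0.61 ± 0.18 in WT (0.0362). Ttr, the 1 of 10 hepatocyte markers that passed, rose with diet in WT (0.41 ± 0.09, 0.00796) and in KO (0.47 ± 0.09, 0.00141). The 8 of 9 endothelial markers with a region summed to 816.9 to 858.0 CPM in WT chow, 694.4 to 784.8 in WT PTU/LID, 648.6 to 671.5 in KO chow and 622.7 to 674.6 in KO PTU/LID. Of these, Pecam1 (-0.52 ± 0.12, edgeR adjusted p = 0.0113), Ehd3 (-0.43 ± 0.13, 0.0373) and Cdh5 (-0.75 ± 0.23, 0.0499) fell with diet in WT. Tek fell with diet in KO (-0.87 ± 0.27, 0.0472). Pecam1 (-0.57 ± 0.12, 0.0102) and Ehd3 (-0.68 ± 0.13, 0.00325) were lower in KO than in WT on chow. The part of these marker differences in the results was not tested, and in whole liver a change in cell makeup and a change of acetylation per cell cannot be told apart. The gene-level Ncor1 signal was 53.89 ± 8.98 CPM in WT chow and 52.80 ± 9.32 in KO chow (SD, n = 3), a mark on chromatin that does not check a deletion of exons.

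The promoters of Ndufaf4, Ndufaf8, Atp5l and Cox8b are shown because these genes carried differences described below. Each is the 250 bases before the annotated start on the gene's own strand, 5′ to 3′, from RefSeq on GRCm38.p6. Ndufaf4 is at chr4:24897833-24898082 on the plus strand, Ndufaf8 at chr11:120098684-120098933 on the plus strand, Atp5l at chr9:44920743-44920992 on the minus strand and Cox8b at chr7:140900447-140900696 on the minus strand. Capitals mark matches, on either strand, to the core of the NRF1 site, CGCATGCG. They also mark the letters of ETS factors including GABP, which are CCGGAAG. The Sp1 letters searched were GGGCGG. The TATA box was searched as TATAAA.
Ndufaf4: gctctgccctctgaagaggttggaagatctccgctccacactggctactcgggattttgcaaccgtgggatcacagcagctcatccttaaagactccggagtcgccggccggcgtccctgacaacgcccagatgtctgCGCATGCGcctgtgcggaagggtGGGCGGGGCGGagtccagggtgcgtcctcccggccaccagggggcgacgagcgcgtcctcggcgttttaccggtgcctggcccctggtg
Ndufaf8: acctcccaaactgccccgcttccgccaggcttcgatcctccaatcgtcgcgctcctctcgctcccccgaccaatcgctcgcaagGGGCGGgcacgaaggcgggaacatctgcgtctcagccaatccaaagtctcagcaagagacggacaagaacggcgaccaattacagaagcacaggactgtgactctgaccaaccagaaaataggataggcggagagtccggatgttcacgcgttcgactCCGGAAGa
Atp5l: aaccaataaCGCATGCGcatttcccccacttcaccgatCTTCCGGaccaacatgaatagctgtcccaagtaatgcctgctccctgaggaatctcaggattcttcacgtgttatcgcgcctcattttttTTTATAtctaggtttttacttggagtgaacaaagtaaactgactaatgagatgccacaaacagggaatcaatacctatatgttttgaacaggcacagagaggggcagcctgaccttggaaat
Cox8b: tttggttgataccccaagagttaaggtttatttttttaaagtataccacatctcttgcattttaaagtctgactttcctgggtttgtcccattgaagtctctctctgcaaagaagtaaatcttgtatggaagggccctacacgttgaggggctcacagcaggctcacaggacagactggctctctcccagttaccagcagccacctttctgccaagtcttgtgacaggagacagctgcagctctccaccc

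Ndufaf4 carried the NRF1 core 112 bases before its start and 2 overlapping Sp1 matches, and Ndufaf8 an ETS match 8 bases before its start. Atp5l held the NRF1 core at 241 bases and an ETS match at 212 bases before its start. The Cox8b sequence held none of these letters, with 1 CpG against 23 in Ndufaf4. Over 300-base promoters (250 before to 50 after the start, both strands), the NRF1 core was in 11 of 83 promoters of the set (13.3%) against 1.9% of all 32851 promoters and 2.5% of coding ones. ETS letters were in 19 of 83 (22.9%) against 8.9% of all and 11.6% of coding promoters, and the YY1 letters AAGATGGCG in 8 of 83 (9.6%) against 1.4% and 1.8%. The ERR letters TCAAGGTCA were in 2 of 83 (2.4%) against 0.4% of all promoters, those of Atp5g3 and Sdhd. Sp1 letters were near the coding share, at 43.4% against 46.2%, and TATAAA was in 10.8% against 12.6%. A direct repeat of AGGTCA with a 4-base gap, the textbook thyroid hormone receptor element, was in 0 of 83, beside 5 of 32851 promoters. These letters are thus rare in all promoters, and the 0 says only that they are not in these windows. Median GC content was 58.3% against 52.7% for all promoters and 56.3% for coding ones.

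Of the 78 genes of the set with an annotated start, 22 (28.2%) had a start on the opposite strand within 1000 bases, against 8.5% of 17492 coding genes. Atp5j was paired in this way with Gabpa, which encodes a subunit of the ETS factor GABP, 148 bases apart, and Sdhd with Timm8b, 52 bases apart. Acetylation over such a start cannot be given to 1 gene of the pair. For this reason 2 genes counted without a region had acetylation over their start: the region over Ndufb1 belonged by midpoint to Cpsf2 (chr12:101974897-101976782, 78.69 ± 23.34 CPM at region level in WT chow) and the region over Uqcrh to Lrrc41 (chr4:116074400-116076881, 101.5 ± 13.32 CPM). The other 12 genes without a region were Ndufa1, Ndufb4b, Ndufb4c, Ndufaf2, Ndufaf5, Ndufaf7 and 6 isoforms of complex IV named below. Of these, Ndufaf2 and Ndufaf7 had a region close to their start but not over it, with midpoints 0.21 and 0.30 kb away. By the rule these regions belonged to Ercc8 and Cebpz.

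Member regions lay over a start more often than other regions did. Of 132 regions of members with an annotated start, 41.667% spanned it, against 9.796% of 39036 other regions of genes with one. Member regions had a median length of 623 bp against 468 bp over all regions, and 41 of the 82 genes had exactly 1 region. Per kb of region, the median gene of the set had 31.44 CPM over the 12 libraries against 24.43 for all 11586 genes tested, and 66 of 82 were above that median. Among regions over a start the gap was smaller, 32.26 CPM per kb for 55 member regions and 28.91 for 3823 others. Acetylation per kb was highest at Cox7c, a small subunit of complex IV, with 59.26 CPM per kb. The highest in complex V was Atp5e, the epsilon subunit, with 54.28, in complex I Ndufa6 with 48.55, in complex II Sdhb, the iron-sulfur subunit, with 43.75, in complex III Uqcrb with 41.90 and among assembly factors Ndufaf8 with 33.98. Ndufa5 had the lowest level of the 82, 17.42 CPM per kb.

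**Figure D1:**
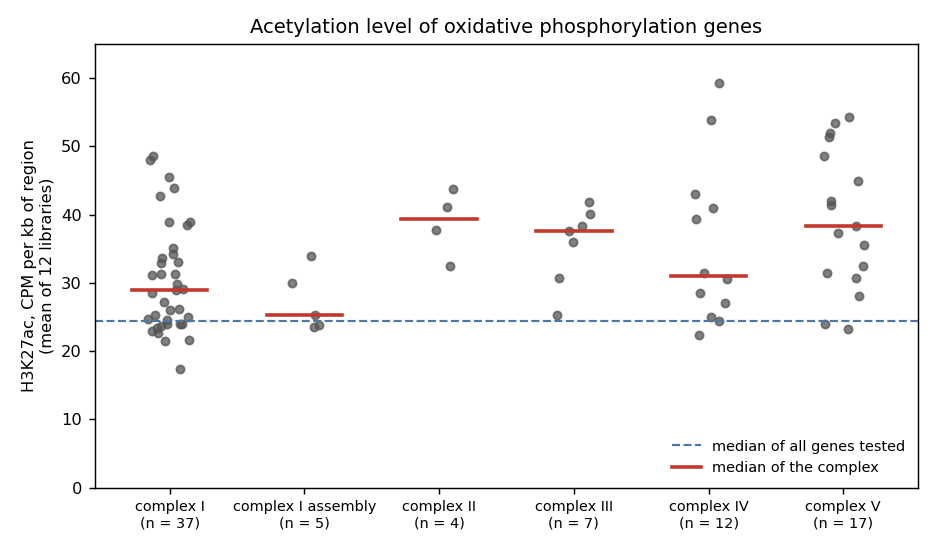
Mean acetylation per kb of region over 12 libraries for each of the 82 genes, by complex, with the median of each complex (red) and of all 11586 genes tested (dashed). Complexes were set by symbol prefix. Complex II, III and V have medians of 39.37, 37.64 and 38.34 CPM per kb, above complex I at 28.97, and the dashed line is at 24.43.

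Complex IV has tissue-restricted isoforms. Cox4i2, Cox6a2, Cox6b2, Cox7a1, Cox7b2 and Cox8c had no region. Their broadly expressed counterparts all had one: Cox8a at 53.87 CPM per kb, Cox7a2 at 39.32, Cox6b1 at 31.45, Cox4i1 at 28.57, Cox6a1 at 25.07 and Cox7b at 24.35. Cox8b, the heart and muscle isoform of subunit 8, was given 5 regions by the distance rule, but 0 of them lay inside the gene or over its start.

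The first comparison asked what the PTU/LID diet did to the set in WT liver. Acetylation of 2 of 82 genes rose and 0 fell, at an adjusted p below 0.05 by edgeR's quasi-likelihood test with Benjamini-Hochberg adjustment over all genes. The background was 3.71% of all genes higher and 3.90% lower, and 2 of 82 is not above that background. The genes were Ndufaf4, a complex I assembly factor, and Cox8b. The median log2 fold change of the set was 0.08, against -0.02 over all genes, and 50 of 82 were above 0, beside 47.4% of all genes. The WT PTU/LID libraries differed here. Genes above their own mean over 12 libraries numbered 17 in Ptulid_WT_27ac_135, 48 in Ptulid_WT_27ac_155 and 70 in Ptulid_WT_27ac_280.

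Ndufaf4 measured 48.56, 43.27 and 56.05 CPM in WT chow and 70.90, 71.35 and 86.16 in WT PTU/LID. These groups did not overlap, and the log2 fold change was 0.62 ± 0.15 (SE, edgeR adjusted p = 0.0151). Of its 3 regions, the one at chr4:24896314-24897058, 1.4 kb from the gene, passed on its own (0.85 ± 0.23, adjusted p = 0.0296). The call was lost without Chow_WT_27ac_96 (adjusted p = 0.0544) or Chow_WT_27ac_99 (0.0919) or Ptulid_WT_27ac_280 (0.0994), and with only the region inside the gene the log2 fold change was 0.40 (0.462). Within the high and low chrM sets it was 0.63 and 0.49, each with a lone library in a group. In KO liver the same comparison gave 0.29 ± 0.15 (adjusted p = 0.276), and the difference between genotypes did not pass (interaction -0.33 ± 0.21, adjusted p = 0.617).

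Cox8b regions measured 150.2, 152.0 and 157.9 CPM in WT chow, 180.0, 201.2 and 215.1 in WT PTU/LID, 227.5, 202.2 and 216.8 in KO chow and 174.7, 208.7 and 196.4 in KO PTU/LID. WT chow was below every other library. The diet difference in WT was 0.37 ± 0.11 on the log2 scale (edgeR adjusted p = 0.0335). The genotype difference on chow was 0.49 ± 0.11 (0.011). Both use the WT chow libraries. The region that passed, at chr7:140905292-140907705, lies 6.05 kb from Cox8b, whose own start lies under no region, so its assignment rests on distance. It overlaps the noncoding gene BC024386, and Nlrp6 nearby also rose with diet, by 0.52 ± 0.13 in WT (0.0136). With only regions within 2.5 kb of a start the diet value was 0.17 (0.673) and the genotype value 0.40 (0.257). The diet call was also lost without any 1 of Chow_WT_27ac_96, Chow_WT_27ac_99 or Chow_WT_27ac_106 or Ptulid_WT_27ac_155 or Ptulid_WT_27ac_280 (adjusted p up to 0.163). Within the high and low chrM sets the diet value was 0.25 and 0.40, each with a lone library in a group. The genotype call was lost without Chow_WT_27ac_99 or Chow_NCoRKO_27ac_122 or Chow_NCoRKO_27ac_190 (up to 0.0616) and was 0.51 (0.00111) within the high set.

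**Figure D2:**
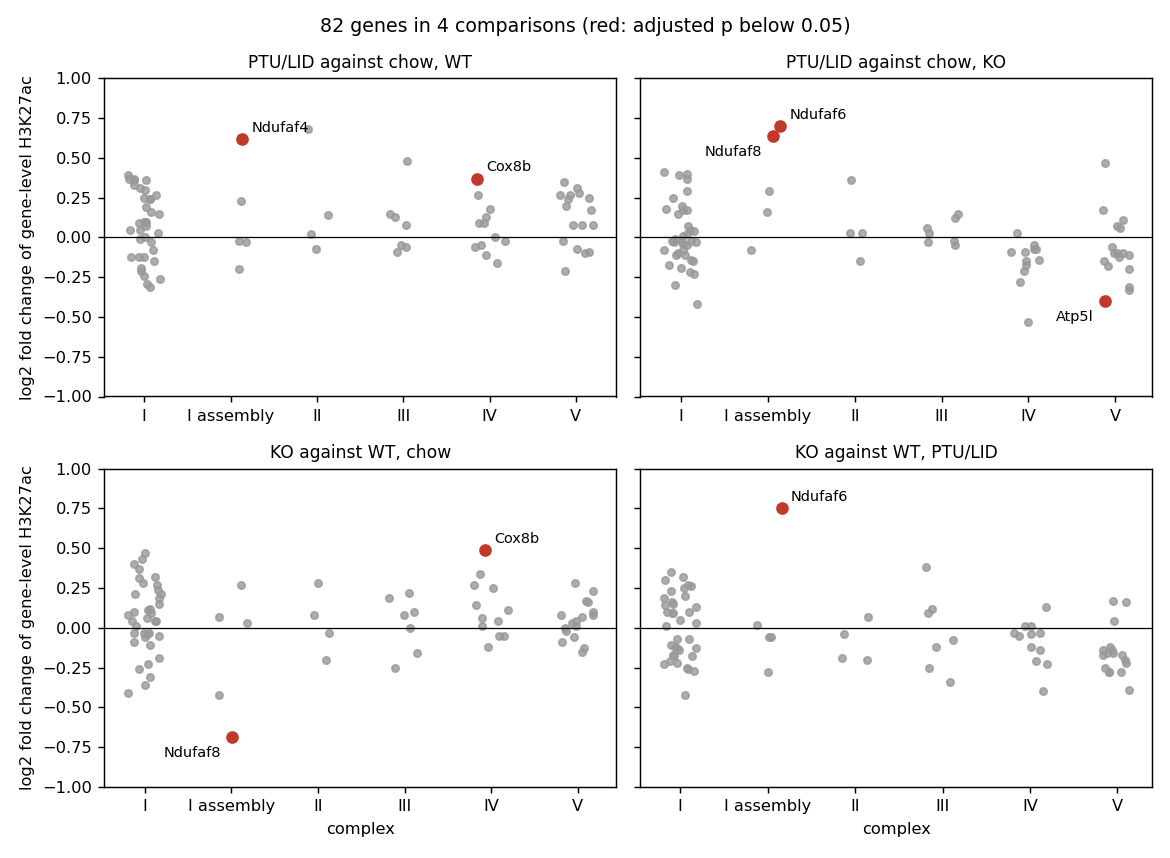
Log2 fold change of gene-level acetylation for the 82 genes in 4 comparisons, by complex, with genes past an adjusted p of 0.05 in red and named. Most genes lie close to 0, and the genes named in red number 2, 3, 2 and 1 in the 4 panels.

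The largest rise in WT belonged to Sdhb and did not pass. It measured 104.1, 98.11 and 146.2 CPM on chow and 135.3, 193.6 and 229.5 on PTU/LID, with overlapping groups (0.68 ± 0.29, adjusted p = 0.189). In the 3 groups that have libraries of both chrM sets, those of the low set were the highest for Sdhb. Its value was 0.42 within the high set and 0.53 within the low set, each with a lone library in a group. It passed with a term for the chrM share (0.44). Uqcrc1, a core subunit of complex III, had 0.48 ± 0.19 (0.114), and Ndufa8 had the largest fall, -0.31 ± 0.15 (0.202).

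Single regions gave 3 higher and 1 lower of 172 in WT, beside 1.81% and 1.90% of all 52606 regions tested. Besides those of Ndufaf4 and Cox8b, a region 16.91 kb from Atp5mpl, a small ATP synthase subunit, rose (chr12:111943878-111945056, 0.66 ± 0.19, edgeR adjusted p = 0.0376). A region inside Cox5a fell, from 9.19, 13.53 and 9.92 CPM to 2.99, 7.75 and 4.72 (chr9:57526667-57527054, -1.03 ± 0.30, 0.0411).

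In KO liver 3 of 82 genes changed with diet, 2 higher and 1 lower, beside 4.34% and 3.11% of all genes. Ndufaf6 and Ndufaf8, both complex I assembly factors, rose, and Atp5l, the g subunit of ATP synthase, fell. The median of the set was -0.04 against -0.01 over all genes. Of 12 complex IV genes 1 was above 0 (median -0.12), beside 49.2% of all genes, and 0 of them passed. At an unadjusted edgeR p under 0.05, 2 of the 12 were lower and 0 higher, beside 1073 and 1303 of all 11586 genes. The largest fall there was that of Cox6c (-0.53 ± 0.19, edgeR adjusted p = 0.0882).

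Ndufaf6 measured 162.2, 152.5 and 152.8 CPM in KO chow and 249.4, 238.5 and 273.4 in KO PTU/LID. WT libraries measured 135.2, 150.2 and 170.3 on chow and 143.8, 156.2 and 152.1 on PTU/LID. All 3 KO PTU/LID libraries were above the other 9, which overlapped one another. The summed hepatocyte markers were also highest in these 3 libraries, and their part in the result was not tested. The diet difference in KO was 0.70 ± 0.11 on the log2 scale (edgeR adjusted p = 9.84e-05) and in WT -0.02 ± 0.11 (0.956). The call held in all 21 alternatives, with values of 0.54 to 0.76. These include the high chrM set (0.68), where Ptulid_NCoRKO_27ac_211 is the only KO PTU/LID library.

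**Figure D3:**
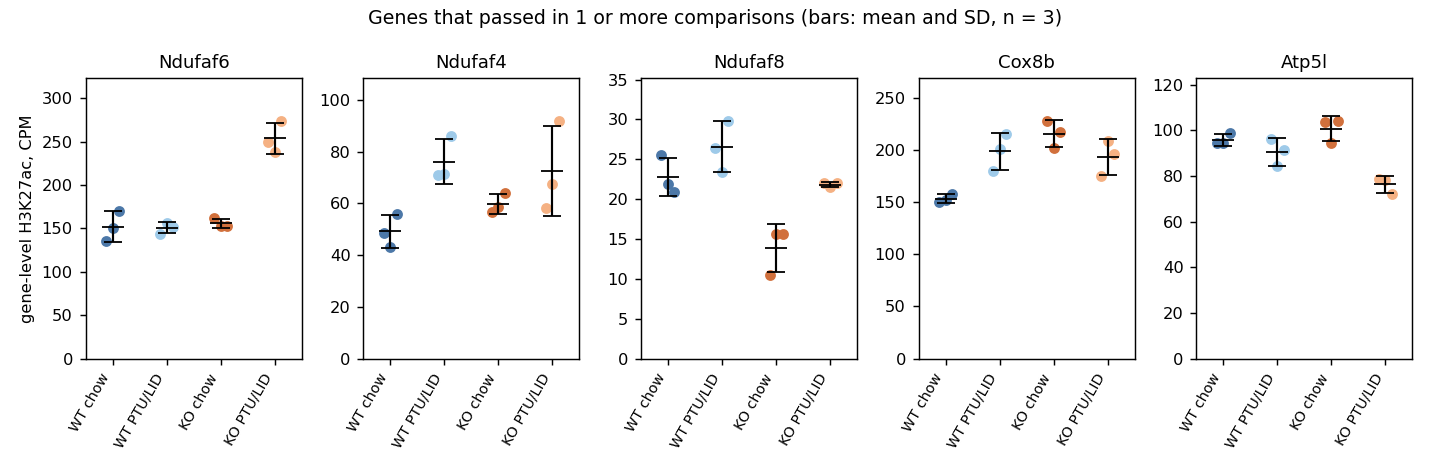
Gene-level acetylation in CPM of the 5 genes that passed in at least 1 comparison, with 1 point per library and the mean and SD of each group (n = 3). Ndufaf6 is highest in KO PTU/LID (253.7 ± 17.86 CPM), Ndufaf8 lowest in KO chow (13.92 ± 3.0) and Cox8b lowest in WT chow (153.4 ± 4.0).

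Ndufaf6 lies at chr4:11048991-11076237 and had 10 regions, 5 inside the gene and 5 on the side towards Trp53inp1. Of these, 4 rose with diet in KO. The large region at the gene's higher-coordinate end (chr4:11074027-11076226) went from 54.62, 57.31 and 52.27 to 76.47, 81.43 and 114.0 CPM at region level (0.73 ± 0.18, edgeR adjusted p = 0.00848). The largest rise was at chr4:11089227-11089774, 13.26 kb outside the gene, from 2.72, 4.28 and 4.28 to 12.02, 13.25 and 12.54 CPM (1.74 ± 0.30, 0.000117). The regions 26.3 and 27.13 kb outside rose by 1.55 ± 0.25 (3.68e-05) and 1.06 ± 0.24 (0.00447). The 2 regions deepest in the gene did not pass, with 0.03 and 0.05. Of the neighbours, Trp53inp1 had 0.40 ± 0.14 (0.0788) and Plekhf2 0.18 ± 0.12 (0.409), and outer regions could belong to another gene than the nearest.

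**Figure D4:**
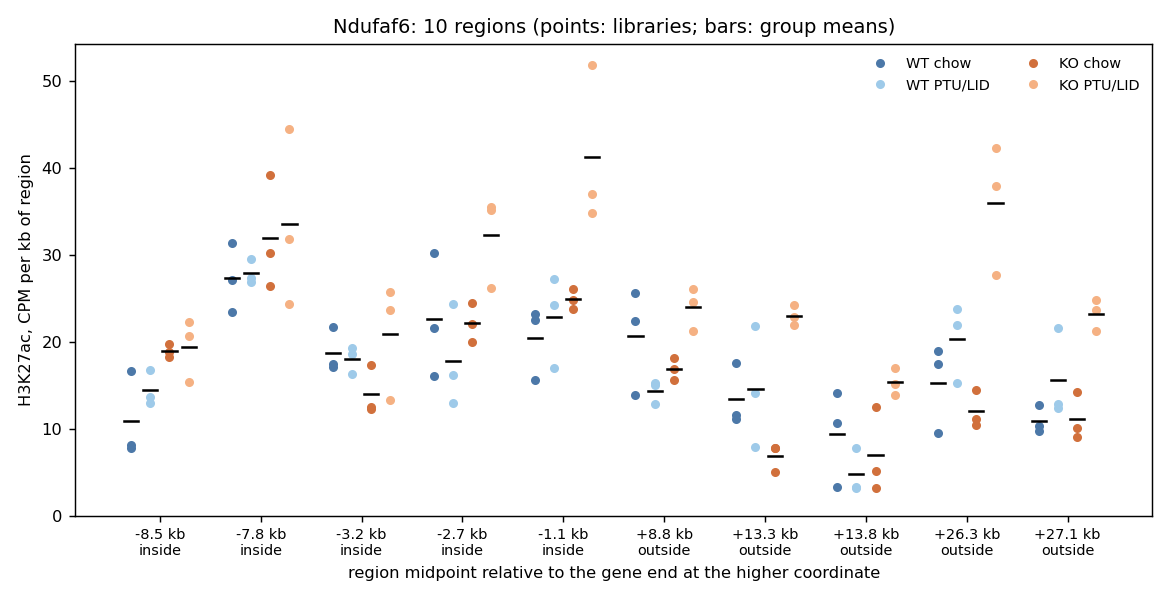
Acetylation in CPM per kb at the 10 regions given to Ndufaf6, ordered by distance from the gene end at the higher coordinate, with 1 point per library and a bar for each group mean. KO PTU/LID stands above KO chow from the gene end outward, most at +13.3 kb and +26.3 kb, and the groups overlap at the 2 leftmost regions.

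Ndufaf8 measured 10.46, 15.68 and 15.63 CPM in KO chow, below all 9 other libraries. WT chow had 25.50, 21.94 and 20.86, WT PTU/LID 26.47, 23.40 and 29.78, and KO PTU/LID 22.02, 21.50 and 22. It was thus lower in KO than in WT on chow (-0.69 ± 0.19, edgeR adjusted p = 0.038) and higher in KO on PTU/LID than in KO on chow (0.64 ± 0.18, 0.0314). Both calls rest on the KO chow libraries. Its single region, chr11:120098907-120099532, covers the start shown above, which Ndufaf8 shares at 203 bases with Tepsin. At region level neither passed (0.0652 and 0.0596). The genotype call was lost without any 1 of the 6 libraries compared (adjusted p up to 0.174), and the diet call without Chow_NCoRKO_27ac_122 (0.193) or Ptulid_NCoRKO_27ac_232 (0.0766) or Ptulid_NCoRKO_27ac_239 (0.0995). Within the high chrM set the values were -0.76 (0.0214) for genotype and 0.66 for diet, the latter with a lone KO PTU/LID library.

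Atp5l measured 103.6, 94.49 and 104.0 CPM in KO chow and 78.65, 78.37 and 72.02 in KO PTU/LID, with no overlap (-0.40 ± 0.11, edgeR adjusted p = 0.0223). WT libraries measured 94.33, 94.46 and 99.01 on chow and 96.06, 84.19 and 91.47 on PTU/LID (-0.09 ± 0.11, 0.697). Its single region did not pass at region level (0.0916). The gene-level call was lost without Chow_NCoRKO_27ac_122 or Chow_NCoRKO_27ac_190 or Ptulid_NCoRKO_27ac_232 or Ptulid_NCoRKO_27ac_239 (up to 0.125) and with a chrM-share term (0.0595). Within the high chrM set, with a lone KO PTU/LID library, the value was -0.36.

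At region level 6 of 172 rose and 0 fell with diet in KO, beside 3.28% and 2.94% of all regions. Of these, 4 were at Ndufaf6 and 1 at Atp5d, the delta subunit (0.82 ± 0.24, edgeR adjusted p = 0.0312). The Atp5d region was at 8.89, 9.12 and 9.32 CPM in KO chow and 10.49, 18.77 and 18.22 in KO PTU/LID. The lowest of the latter was Ptulid_NCoRKO_27ac_211, the only KO PTU/LID library of the high chrM set, within which the log2 fold change was 0.20.

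Between genotypes on chow, 1 of 82 genes was higher in KO (Cox8b) and 1 lower (Ndufaf8), beside 2.51% and 1.61% of all genes. The median was 0.06 against -0.01. Ndufs6, a complex I subunit, did not pass. It measured 31.10, 30.17 and 23.69 CPM in WT and 37.09, 40.73 and 38.16 in KO, without overlap (0.47 ± 0.15, edgeR adjusted p = 0.0729). Ndufb3 had 0.40 ± 0.12 (0.0626). Of regions, 1 was higher (Cox8b) and 2 lower, beside 1.61% and 0.823%. Among the lower was a region of 223 bp inside Sdhd, a membrane anchor of complex II, at 8.23, 5.80 and 5.46 CPM in WT and 1.27, 3.54 and 1.99 in KO (-1.49 ± 0.36, 0.0179). With a chrM-share term, 8 genes and 10 regions of the set passed in this comparison, and within the high chrM set 5 and 7. The shares of all genes and regions passing in these fits are not given, so these counts have no background beside them.

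On PTU/LID, Ndufaf6 alone of the 82 differed between genotypes, higher in KO by 0.75 ± 0.11 (edgeR adjusted p = 0.00012), with 0 lower, beside 5.33% of all genes higher and 1.28% lower. It passed in all 22 alternatives (0.69 to 0.91) and was 0.73 (1.44e-05) within the low chrM set. Within the high set it was 0.79, from Ptulid_WT_27ac_135 and Ptulid_NCoRKO_27ac_211 alone. Trp53inp1, the neighbour beyond its outer regions, was also higher (0.55 ± 0.14, 0.0167). The median of the set was -0.08 against -0.02, and 3 of 17 complex V genes were above 0, beside 47.1% of all genes, with 0 passing. The complex V level differed among the WT PTU/LID libraries. Relative to each gene's mean over 12 libraries, its median was -0.26 in Ptulid_WT_27ac_135, 0.12 in Ptulid_WT_27ac_155 and 0.39 in Ptulid_WT_27ac_280. In KO PTU/LID it was -0.15 in Ptulid_NCoRKO_27ac_211, -0.01 in Ptulid_NCoRKO_27ac_232 and -0.00 in Ptulid_NCoRKO_27ac_239. Uqcrq, of complex III, had the next largest rise, 0.38 ± 0.13 (0.0717). At region level 4 of 172 were higher and 0 lower, beside 3.17% and 0.698%, all 4 at Ndufaf6. Of these, only the region starting at chr4:11074027 also passed for diet in KO. The others start at chr4:11073260, chr4:11084444 and chr4:11089890. The outer regions starting at chr4:11089227, chr4:11102258 and chr4:11103022, which passed for diet in KO, did not pass here. These genotype calls share the KO PTU/LID libraries with the diet comparison in KO.

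Whether diet acted differently in the genotypes was tested as the interaction. It passed at 1 of 82 genes, Ndufaf6 (0.72 ± 0.15 on the log2 scale, edgeR adjusted p = 0.03), and at 0 lower, beside 0.311% and 0.104% of all genes. The call was lost in 12 of 20 alternatives, among them without Chow_WT_27ac_99 or Chow_WT_27ac_106, Ptulid_WT_27ac_280, Chow_NCoRKO_27ac_122, Chow_NCoRKO_27ac_146 or Chow_NCoRKO_27ac_190 and Ptulid_NCoRKO_27ac_232 or Ptulid_NCoRKO_27ac_239 (adjusted p up to 0.128). Within the high chrM set, with a lone library in each PTU/LID group, the value was 0.67. With regions inside the gene only it was 0.49 (0.339). Of the 172 regions 0 passed, beside 0.158% higher and 0.0722% lower of all regions. At an unadjusted edgeR p under 0.05, 10 of the 172 were higher and 8 lower, beside 2760 and 2099 of all 52606 regions.

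Of the 17 region calls over the 5 comparisons, 3 stood whichever library was left out, all at Ndufaf6 for diet in KO (13.26, 26.3 and 27.13 kb outside the gene). The other 14 were lost without at least 1 library of the groups compared. The call of the Atp5mpl region was lost without Chow_WT_27ac_96, Chow_WT_27ac_99 or Chow_WT_27ac_106 or Ptulid_WT_27ac_155 or Ptulid_WT_27ac_280 (adjusted p up to 0.15), and that of the Cox5a region without 7 of the 12 libraries (up to 0.18). The Sdhd call was lost without Chow_WT_27ac_96 or Chow_WT_27ac_99 or Chow_NCoRKO_27ac_122 or Chow_NCoRKO_27ac_190 (up to 0.111). The Atp5d call was lost without any 1 of 5 libraries, Chow_NCoRKO_27ac_122, Chow_NCoRKO_27ac_146 or Chow_NCoRKO_27ac_190 or Ptulid_NCoRKO_27ac_232 or Ptulid_NCoRKO_27ac_239 (up to 0.184).

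For the other genes the data bound the change rather than show none. In the diet comparisons in WT and KO, 55 and 63 of 82 genes had an approximate 95% interval within 1.5-fold either way, in the genotype comparisons 62 each, and in the interaction 27. The median SE was 0.17 in WT, 0.16 in KO and 0.24 for the interaction.

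Within WT PTU/LID the set as a whole stood at different levels in different libraries. Relative to each gene's mean over 12 libraries, the median of the set was -0.16 in Ptulid_WT_27ac_135 and 0.26 in Ptulid_WT_27ac_280, where 17 and 70 of 82 genes were above their own mean. The other 10 libraries lay between -0.10 and 0.07. The diet median in WT was -0.05 without library Ptulid_WT_27ac_280 and 0.14 without library Ptulid_WT_27ac_135, when 8 genes passed in place of 2. The share of all genes passing in that fit is not given. The values that follow are again medians of the diet comparison in WT. Within the high chrM set it was -0.15 and within the low set 0.14. The sign of this median thus differs between the sets, and the part of the chrM share in it cannot be told apart from single libraries.

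**Figure D5:**
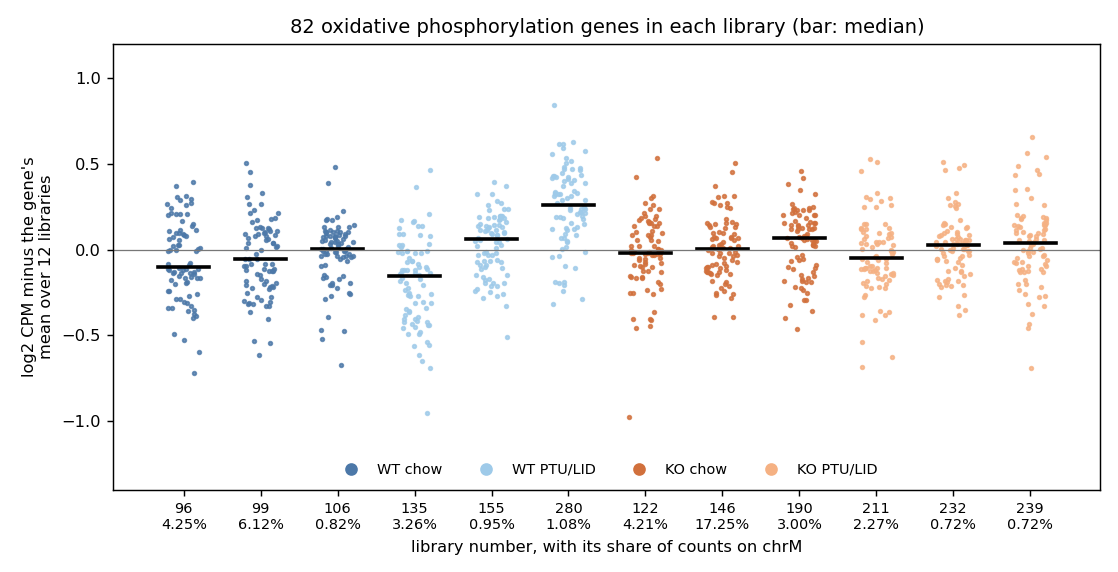
Log2 CPM of the 82 genes minus each gene's mean over the 12 libraries, with the median as a bar and each library's share of counts on chrM below its number. Within WT PTU/LID, library Ptulid_WT_27ac_135 has a median of -0.16 and library Ptulid_WT_27ac_280 of 0.26, while the other 10 lie between -0.10 and 0.07.

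Other genes of the pathway were taken from 5 lists. The 39 further respiratory chain genes tested (of 45) had medians of -0.08 in WT and -0.05 in KO for diet. The counts that follow stand beside the same shares of all genes as above, 3.71% higher and 3.90% lower with diet in WT, 4.34% and 3.11% with diet in KO, 2.51% and 1.61% between genotypes on chow, and 5.33% and 1.28% on PTU/LID. The lists are small, with 7 to 39 genes tested, so that 1 or 2 calls are given as values and no list is called apart from the background. Of these 39, Cox19, a copper-related assembly factor of complex IV, was the 1 that rose with diet in WT (0.78 ± 0.14, edgeR adjusted p = 0.00142), with 0 lower, and it rose in KO (0.50 ± 0.14, 0.0267). In KO, Coa3 also rose and Cox10 fell with diet, 2 higher and 1 lower in all, and on PTU/LID Lrpprc (0.40 ± 0.10, 0.0161) and Tmem186 were higher in KO than in WT. Among 22 regulators of mitochondrial biogenesis 0 passed for diet in WT. Ppargc1a, which encodes the coactivator PGC-1α, measured 315.2 ± 47.43 CPM on chow and 314.9 ± 43.93 on PTU/LID there. In KO it went from 300.6 ± 9.73 to 414.3 ± 54.53, a rise of 0.46 ± 0.12 (0.0192), the 1 of 22 that passed for diet, and the median of the list was 0.01. Esrrg, a nuclear receptor, was higher in KO on chow (0.51 ± 0.14, 0.0465) and on PTU/LID (0.61 ± 0.15, 0.0115), Ppargc1b on PTU/LID (0.52 ± 0.13, 0.0134), and Esrra had 0.28 ± 0.22 (0.524) and 0.03 ± 0.22 (0.963).

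Of 14 citric acid cycle genes, diet raised 1 and lowered 1 in WT and raised 1 and lowered 2 in KO, with medians of -0.09 and 0.04. Idh2 rose in WT (0.67 ± 0.18, 0.0378) and Idh3a fell in KO by 1.2 ± 0.24 (0.00159). Fh1, fumarase, rose in KO by 0.94 ± 0.15 (edgeR adjusted p = 0.000363), with an interaction of 1.15 ± 0.22 (0.0179). Sucla2, a subunit of succinyl-CoA synthetase, fell in WT by 0.56 ± 0.13 (0.00925) and in KO by 0.81 ± 0.12 (7.59e-05). Cs, citrate synthase, was higher in KO on PTU/LID (0.59 ± 0.11, 0.000958). Of 16 genes of coenzyme Q synthesis and other electron entry, diet raised 1 and lowered 2 in WT and raised 2 and lowered 1 in KO, with medians of 0.00 and -0.14. Coq8b rose in both (1.11 ± 0.28, 0.0345, and 1.01 ± 0.27, 0.0423), and Coq2 fell in WT by 0.80 ± 0.16 (0.00237). Coq7 rose in KO (0.55 ± 0.12, edgeR adjusted p = 0.00601). Between genotypes on chow, Etfa was higher in KO (0.51 ± 0.14, 0.038) and Coq2 lower (-0.55 ± 0.15, 0.0374). Gpd2, the mitochondrial glycerol-3-phosphate dehydrogenase and a classical thyroid hormone target, went from 123.0 ± 11.71 to 74.08 ± 2.39 CPM with diet in WT and from 197.3 ± 9.75 to 133.8 ± 23.64 in KO. It fell by 0.73 ± 0.13 (0.000953) and 0.55 ± 0.12 (0.00409), and was higher in KO on chow (0.69 ± 0.12, 0.00214) and on PTU/LID (0.86 ± 0.13, 0.000136). Of 7 exchange genes across the inner membrane, with diet medians of -0.13 in WT and -0.08 in KO, Ucp2 fell in WT by 0.67 ± 0.14 (0.00514). In the other comparisons 0 of the 7 passed by edgeR. The diet comparisons and the genotype comparisons share groups.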

How the data were processed

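H3K27ac ChIP-seq was measured in 12 liver libraries, and 4 input libraries in the labels were not analysed here. The authors deposited raw counts of reads per library over 52645 shared regions. The submitters' processing notes name mm10 as the build. They list the tools MACS2 2.1.1, Bowtie2 2.2.1, bedtools 2.26.0, bcl2fastq 2.17.1.14 and Picard 2.8.1 and give them no order. How regions were made and whether duplicates were removed is not given in the sources used here.

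Regions were assigned by midpoint to RefSeq genes of GRCm38.p6, or to the nearest coding gene within 50 kb. Counts were summed per gene. Tests were run over all genes (11586) or regions (52606) with edgeR 4.0.16 in R 4.3.3: TMM factors, filterByExpr with a minimum count of 10, robust quasi-likelihood fits with 1 mean per group over 12 libraries, and Benjamini-Hochberg adjusted p below 0.05. The SE is taken from the F statistic as the size of the log2 fold change divided by its root. CPM at gene and region level are on different scales, and a shift of H3K27ac everywhere would go unseen. Intervals are the estimate ± 1.96 SE. DESeq2 1.42.0 was an alternative. The code was tested on simulated data: estimates and signs were recovered, but most genes changed 1.5-fold were not called, and the share called of those changed 2-fold fell short of a line set beforehand, which was then dropped as a criterion. Small counts of calls therefore do not show that such changes are absent.

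Members and lists were chosen with earlier results of these data known. Named were members that passed at gene or region level, the 3 largest rises and falls per comparison, the highest level per complex, complex IV isoforms, and list genes that passed (at most 6 per list) with Ppargc1a and Esrra. BC024386, Trp53inp1, Plekhf2 and Nlrp6 were named after their positions and values were seen. Some regions that passed are counted but not reported here by name.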

Additional observations from a re-analysis of the deposited data

Results flagged for a closer look

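The diet response of Ndufaf6 differed between genotypes by a test of the difference itself: the interaction was 0.72 ± 0.15 on the log2 scale (edgeR adjusted p = 0.03), from a diet difference of 0.70 in KO and -0.02 in WT. The call was kept in 8 of 20 alternatives, and the value ranged from 0.49 to 0.79.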

How the results depend on the processing

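No paired analysis was possible because the 4 groups compared share no library number. Over 197 values of named genes and regions, 3968 of 4127 alternatives stayed on the same side of the threshold, 126 lost a call and 33 gained one. Of these alternatives, 3607 belonged to the 171 values that did not pass and so had no call to lose. The 126 losses all came from the 520 alternatives of the 26 values that passed. Of 9 gene calls, 2 stood whichever library was left out, both at Ndufaf6, and 7 were lost without at least 1 library. The 26 values that passed kept their sign in all 520 of their alternatives. Of the 171 that did not pass, 93 had the opposite sign in at least 1 of their alternatives. Of these opposite signs, 113 came from leaving out 1 library and 60 from the chrM sets. Leaving out 1 library at a time, genes of the set that passed numbered 0 to 8 for diet in WT (2 with all libraries), 1 to 6 for diet in KO (3), 0 to 3 for genotype on chow (2), 1 to 3 for genotype on PTU/LID (1) and 0 to 1 for the interaction (1). Regions numbered 0 to 10 (4), 3 to 9 (6), 0 to 5 (3), 0 to 6 (4) and 0 to 2 (0). The set's median log2 fold change ran from -0.05 to 0.14 for diet in WT, -0.16 to 0.06 for genotype on PTU/LID and -0.20 to 0.01 for the interaction. Within the high chrM set, 5 genes and 7 regions passed for genotype on chow. The medians there were -0.15 for diet in WT, 0.13 for genotype on PTU/LID and 0.11 for the interaction. These medians rest on a lone library in each PTU/LID group. Within the low set, 3 genes and 10 regions passed for genotype on PTU/LID. A chrM-share term gave 8 genes and 10 regions for genotype on chow, 3 and 8 for genotype on PTU/LID and 2 and 3 for the interaction. With only the 2 groups compared, genotype on chow had 4 genes and 5 regions. With regions within 2.5 kb of a start, 1 gene passed for diet in WT, 1 for genotype on chow and 0 for the interaction. With regions inside the gene only, genes numbered 0 for diet in WT, 1 for genotype on chow and 0 for the interaction, and regions 1 for diet in WT, 3 for diet in KO and 2 for genotype on PTU/LID. A distance limit of 10 kb gave 3 regions for diet in KO and 0 genes for the interaction. The last 3 settings use fewer regions, and for the others the cause was not tested. The shares of all genes and regions passing under the alternatives are not given, so their counts have no background beside them. The low chrM set holds no KO chow library and gave no value for 3 comparisons. Gene sums hold no chrM region.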
